A study of Mus musculus with 12 samples.

Results

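The comparison described here set 4 RNA-seq libraries whose sample titles start with 46 against the 8 libraries whose titles start with 40, out of 12 libraries in all. Every library holds messenger RNA of myeloid cells from the mouse tibialis anterior, collected 5 days after notexin, a myotoxic snake venom protein, was injected to make the muscle degenerate and regrow. Cells were sorted as viable, CD45-positive and CD11B-positive, with LY6G- and SIGLECF-positive cells (neutrophils and eosinophils) removed, and the labels name them macrophages. The 4 groups of 3 libraries were Ifngr1 wt/null with isotype antibody (46C5, 40C3 and 40B1), wt/null with anti-TNF neutralizing antibody (46C7, 40C1 and 40A2), null/null with isotype antibody (46C3, 40C4 and 40B2) and null/null with anti-TNF antibody (46C6, 40C2 and 40A3). Antibodies were injected into the abdomen daily. All mice carried at least one null allele of Ifngr1, which encodes a receptor subunit for interferon gamma (IFN-γ), so no fully wild-type mouse was among them.

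Each group thus held exactly 1 title starting with 46, and 46 and 40 were compared within the groups, so that neither genotype nor antibody entered the comparison. The labels do not say what the number, letter or last digit of a title stands for, nor whether each sample was a separate mouse. If several samples came from one mouse, p-values measure only the spread between these samples. A difference between 46 and 40 cannot be told apart from any other feature that the titles starting with 46 share, including the letter C, which 4 of the titles starting with 40 carry as well.

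After muscle injury, circulating LY6C-high monocytes enter the tissue and turn into macrophages that first clear debris and later support new fibre formation. On a given day a CD11B-positive gate can therefore hold monocytes, macrophages at several stages, dendritic cells and macrophage-derived cells that secrete matrix-degrading proteases. ADAM19, ribonucleases, complement and TNF-family ligands are among the proteins that macrophages display or release. In bulk RNA, a change in the number of cells of a type cannot be told apart from a change in RNA per cell.

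Depth ran from 23.2 to 29.9 M counts per library and did not separate the titles (26.4 ± 0.927 M, SD, n = 4, for 46 and 25.8 ± 2.02 M, n = 8, for 40; exact permutation within groups, two-sided p = 0.654). Expression is given as CPM, counts per M counts of a library after trimmed-mean (TMM) scaling. Ifngr1 matched the genotype labels in all libraries, at 226 to 250 CPM in wt/null and 83.3 to 119 CPM in null/null. Pan-leukocyte Ptprc (718 to 1242 CPM), Itgam, which encodes CD11B (674 to 1047 CPM), and the macrophage genes Csf1r (3157 to 4061 CPM) and Adgre1 (1368 to 1783 CPM) were high in every library. The eosinophil gene Epx and 4 haemoglobin genes had 0 counts throughout, and Y-linked transcripts were present and Xist was at 10 counts or fewer in every library.

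Removing the group means left the variation among libraries of one group. On its first principal component (36.0% of that variation) the 2 anti-TNF libraries 40C1 and 40C2 stood apart from the rest, at scores of -40.5 and -39.2 against -7.52 to 21.9 for the other 10. The second component (19.2%) set the titles apart: the 46 libraries lay at 23.2, 23, 6.81 and 19.7 (46C5, 46C7, 46C3 and 46C6), and the 40 libraries lay between -19.8 and 1.16. In this design of 81 possible arrangements of titles within groups, the difference had the smallest p that exact permutation can give (two-sided p = 0.0123, adjusted p = 0.0329 over 8 library measures). Of the 46 libraries, 46C3 lay nearest to the 40 libraries, and of those 40C4, from the same group, lay nearest to it. Leaving out 40C1 and 40C2, the same separation appeared on the first component (33.9%), with 46 at 7.71 to 23 and 40 at -21.3 to 1.40 (exact p = 0.0278, the smallest that 36 arrangements allow; adjusted p = 0.0741).

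**Figure D1:**
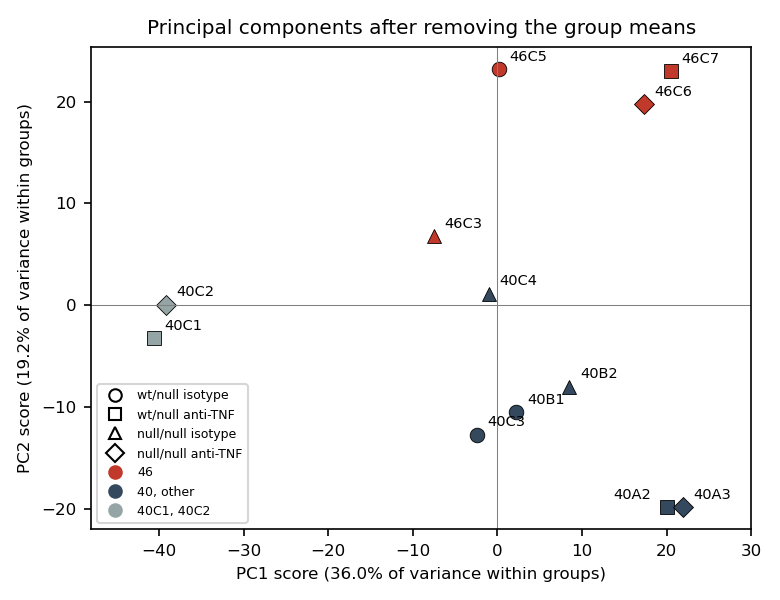
Scores of the 12 libraries on the first and second principal components of log2 CPM after the group means were removed; the marker shape gives the group and the colour the title number. The 4 libraries starting with 46 lie above all 8 starting with 40 on the second component, and 40C1 and 40C2 lie far to the left on the first.

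The number of genes with at least 1 count was also higher in the 46 libraries (15045 to 15139) than in the 40 libraries (14758 to 15029), without overlap (exact permutation, two-sided p = 0.0123, adjusted p = 0.0329). Without 40C1 and 40C2 this difference and that in histone share, given next, each had an exact p of 0.0278 and an adjusted p of 0.0741. Transcripts of histone genes, most of which lack a poly(A) tail, made up 0.0109% to 0.0117% of counts in 46 and 0.00772% to 0.0109% in 40, with the 46 library above both 40 libraries in each group (exact p = 0.0123, adjusted p = 0.0329). Ribosomal protein genes took 3.19 ± 0.217% (SD, n = 4) against 3.36 ± 0.236% (n = 8), a difference within the spread (exact p = 0.136). Title number held 13.8% of the variance of log2 CPM over all tested genes (1 degree of freedom), and the 4 groups together held 25.0% (3 degrees of freedom). The rest held 61.2%, or 8.74% per degree of freedom. Without 40C1 and 40C2 the shares were 22.2% and 27.6%, and the rest held 50.2%, or 10.0% per degree of freedom.

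Over all 12 libraries and 12981 tested genes, 2 genes passed an adjusted p of 0.05 in edgeR's quasi-likelihood test, Adam19 and Rnase4, both lower in 46 (0.0154% of the genes tested). No gene passed as higher in 46 (0%), where 717 of 1276 genes at an unadjusted p under 0.05 were higher. DESeq2 called 89 genes higher and 58 lower on the same counts, and limma voom 68 and 42. A wider net, the genes whose 46 library lay above both 40 libraries in all 4 groups, held 348 genes (2.68%), and 329 lay below both in all 4 groups (2.53%).

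Adam19 encodes a membrane-anchored metalloprotease that sheds ligands such as neuregulins from the cell surface (chromosome 11, 46054502 to 46147347, GRCm38.p6). It was at 73.2, 70.9, 115 and 88.8 CPM in 46C5, 46C7, 46C3 and 46C6. In the 40 libraries its lowest, median and highest levels were 167, 188 and 201 CPM. All 4 libraries starting with 46 were below all 8 starting with 40, with a gap wider than the whole range of the 40 libraries. The log2 fold change was -1.12 ± 0.11 (SE; adjusted p = 0.00815), and -1.14 ± 0.12 without 40C1 and 40C2 (adjusted p = 0.00781). Adam19 kept its direction when any library was left out and missed the threshold without 46C5 (adjusted p = 0.0734) or without 46C7 (adjusted p = 0.103). Against the 40C libraries alone the fold change was -1.12 (adjusted p = 0.255), and against 40A and 40B it was -1.13 ± 0.13 (adjusted p = 0.011).

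Rnase4 encodes a secreted ribonuclease and lies on chromosome 14 (51091077 to 51106151), over Ang, which encodes the ribonuclease angiogenin (51091077 to 51102009). RefSeq gives both genes the same first start site, so the 250 bases before it are one shared promoter, on the plus strand of GRCm38.p6, chr14:51090827-51091076. It is shown because its 2 transcripts can be compared; capitals mark the one CCAAT, at position 196 counted from the 5′ end.

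Rnase4 and Ang: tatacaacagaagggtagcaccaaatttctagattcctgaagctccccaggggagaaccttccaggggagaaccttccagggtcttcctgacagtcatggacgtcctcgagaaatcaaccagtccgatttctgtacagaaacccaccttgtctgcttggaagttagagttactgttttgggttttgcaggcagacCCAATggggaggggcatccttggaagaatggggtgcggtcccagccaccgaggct

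Of 32817 mouse promoters of that length, 33.8% hold CCAAT on either strand. No match to TATAAA (in 12.4% of promoters), GAGGAA (23.3%) or TGANTCA (6.75%) was found on either strand of this window. Rnase4 was at 233, 240, 268 and 232 CPM in 46C5, 46C7, 46C3 and 46C6, and at 336, 390 and 432 CPM as the lowest, median and highest of the 40 libraries. The title sets did not overlap. Its log2 fold change was -0.67 ± 0.09 (adjusted p = 0.0444), and -0.68 ± 0.09 without 40C1 and 40C2 (adjusted p = 0.0118). With a single library left out, the adjusted p of Rnase4 ranged from 0.00305 (without 46C3) to 0.518 (without 46C5), and the fold change from -0.77 to -0.63. In these fits Rnase4 passed only without 40C1, 40B2 or 46C3, and it missed the threshold when any other library was left out. Ang was at 19.8, 23.8, 23.4 and 17.5 CPM in 46 and at 21.7 to 35.3 CPM in 40, overlapping, with a log2 fold change of -0.42 ± 0.14 that did not pass (adjusted p = 0.361). Since the genes overlap and the counting is not described, how reads were divided between them is uncertain.

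The number of calls over 12 libraries turned on single libraries. It was 0 without 46C5 or 46C7, 1 without 40B1, 40C3, 40A2, 40C4, 40A3 or 40C2, 2 without 40C1 or 46C6, 3 without 40B2 and 86 without 46C3.

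**Figure D2:**
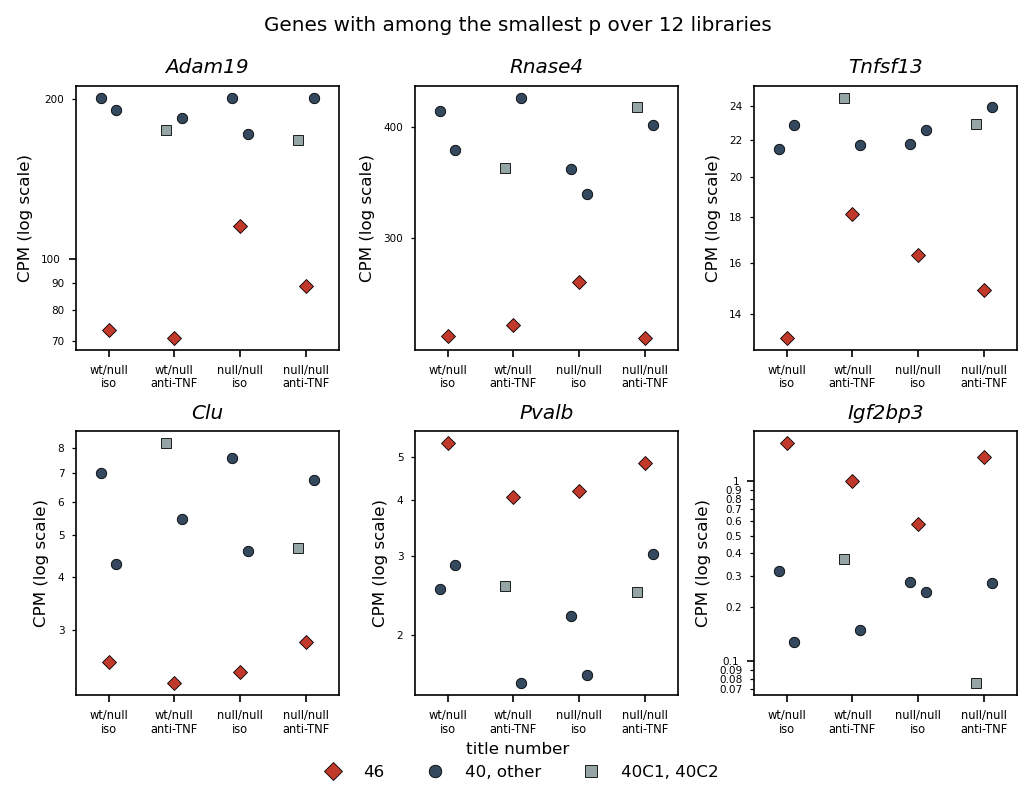
Levels of 6 genes in every library, in CPM on a log scale, by group; diamonds are 46 libraries, circles 40 libraries and squares 40C1 and 40C2. For Adam19, Rnase4, Tnfsf13 and Clu each diamond lies below both other markers of its group, and for Pvalb and Igf2bp3 above them.

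The other 8 genes among the 10 smallest p-values did not pass the threshold over 12 libraries (adjusted p 0.121 to 0.153), and all lay outside both 40 libraries in each group. Tnfsf13, which encodes the B-cell survival ligand APRIL, was at 13.2, 18.1, 16.3 and 14.9 CPM in 46 and 21.5 to 24.5 CPM in 40 (log2 fold change -0.55 ± 0.08). Clu, an extracellular chaperone, was at 2.25 to 2.81 CPM in 46 and 4.28 to 8.23 CPM in 40 (-1.28 ± 0.22). The complement gene C4b was at 91.6 to 140 CPM in 46 and 159 to 272 CPM in 40 (-1.02 ± 0.17), and the scaffold gene Iqgap2 at 128 to 140 against 160 to 204 CPM (-0.43 ± 0.07). On the high side stood the calcium buffer of fast muscle fibres Pvalb (4.08 to 5.37 CPM in 46, 1.56 to 3.03 in 40; 0.98 ± 0.16), the tubulin gene Tubb4b (36.2 to 39.0 against 25.5 to 34.0 CPM; 0.40 ± 0.07) and the RNA-binding protein gene Igf2bp3 (0.578 to 1.63 against 0.0758 to 0.368 CPM; 2.26 ± 0.40). The last of the 8, 4931406C07Rik, was lower (-0.33 ± 0.06).

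Leaving out 40C1 and 40C2, which came from the anti-TNF groups, lowered the biological coefficient of variation from 0.169 to 0.121. In these 10 libraries 42 of 13061 genes were higher in 46 (0.322%) and 40 were lower (0.306%). All 82 had the same sign over 12 libraries, where 50 of them were at an unadjusted p under 0.05. All 82 were also called by DESeq2 and by limma voom, which called 407 and 427 genes in the 10 libraries. Because the 82 were selected in 10 of the same 12 libraries, such agreement is not independent support. This holds for the sign over 12 libraries, for the other tools and for fits with a further library left out. Of the 42 higher genes, the 46 library lay above both 40 libraries in 42 cases in each isotype group, but above 40C1 in 17 and above 40C2 in 21. Of the 40 lower genes it lay below 40C1 in 17 and below 40C2 in 23. For the remaining genes 40C1 or 40C2 lay at or beyond the 46 library of its group, in the direction of the call.

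The list of calls without 40C1 and 40C2 also depended on each other library. The count was 0 without 46C5, 4 without 46C7 or 40A2, 20 without 40C3, 27 without 46C6 or 40A3, 36 without 40B1, 132 without 40B2, 237 without 40C4 and 477 without 46C3. In the anti-TNF groups 1 library of each title number remained, so leaving out either takes the group out of the comparison. No gene was called in all 10 of these fits, and all 82 had the same sign in each. The 40 libraries were also split by title letter, with the 46 libraries in both comparisons. Against 40A and 40B alone, 71 genes were higher (0.546%) and 53 lower (0.408%) in 46, and against 40C alone 0 of 13056 passed (0%), with 1521 at an unadjusted p under 0.05.

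Of 10 listed LY6C-high monocyte genes, Plac8 and Ly6c2 were higher and F13a1 was lower in the 10 libraries. Plac8, a marker of these cells, was at 46.6, 38.7, 44.3 and 23.8 CPM in 46C5, 46C7, 46C3 and 46C6. The lowest, median and highest of the 6 retained 40 libraries were 9.64, 16.1 and 27.0 CPM. The 46C6 value fell inside that range but was above 40A3 of its own group (9.64 CPM), and 40C1 and 40C2 were higher than any 46 library, at 141 and 67.5 CPM. Plac8 rose by 1.32 ± 0.15 on the log2 scale without those 2 libraries (adjusted p = 0.0086), and with them the fold change was 0.37 ± 0.72 (adjusted p = 0.902).

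Ly6c2, which encodes the LY6C antigen itself, was at 24.7, 21.2, 21.1 and 11.7 CPM in 46, at 6.22 to 12.9 CPM in the 6 retained 40 libraries, and at 77.8 and 30.3 CPM in 40C1 and 40C2. The 46C6 value again lay inside the range of the retained 40 libraries and above 40A3. The log2 fold change of Ly6c2 was 1.18 ± 0.17 without them (adjusted p = 0.0168) and 0.32 ± 0.67 with them (adjusted p = 0.907). Slfn4, an interferon-responsive gene of monocytes, was at 16.1 to 21.9 CPM in 46 and 3.58 to 9.28 CPM in the retained 40 libraries (1.56 ± 0.18, adjusted p = 0.0086). It was at 19 and 32.8 CPM in 40C1 and 40C2, and over 12 libraries its fold change was 0.87 ± 0.53 (adjusted p = 0.619). A further 3 genes were higher without 40C1 and 40C2 and missed the threshold with them. They were Hp, the haptoglobin gene (1.39 ± 0.21, or 0.92 ± 0.48 with them), the neutrophil surface gene Cd177 (1.32 ± 0.16, or 0.79 ± 0.37) and the interferon-induced membrane gene Ifitm1 (1.47 ± 0.19, or 0.94 ± 0.55). F13a1, the coagulation factor XIII subunit made by monocytes and resident-type macrophages, went the other way. It was at 393 to 434 CPM in 46 and 489 to 620 CPM in the retained 40 libraries (-0.44 ± 0.07, adjusted p = 0.0208). Over 12 libraries its fold change was -0.29 ± 0.18 (adjusted p = 0.608). It was also the 1 called of 17 resident-type macrophage genes tested (0.306% of all genes were called lower). Of the 17, 15 were negative without 40C1 and 40C2 and 11 over 12 libraries (medians -0.18 and -0.15), against 49.7% and 52.2% of all genes. At an unadjusted p under 0.05 stood 7 and 4, against 13.8% and 9.83%. Summed, that list was at 7357 to 7735 CPM in 46 and 7764 to 9143 CPM in all 8 libraries starting with 40.

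The median log2 fold change of the 10 monocyte genes was 0.66, against 0.00 over all genes tested, of which 0.322% were called higher and 0.306% lower. With all 12 libraries 0 of the 10 passed and the median was 0.31. The summed level of the list was 2471 to 3342 CPM in 46 and 2281 to 3462 CPM in the retained 40 libraries. Besides F13a1, its more abundant members did not pass: Fn1, the fibronectin gene, had a fold change of 0.03 ± 0.22, Thbs1, the thrombospondin gene, one of 0.86 ± 0.25, and Ccr2, the chemokine receptor that brings monocytes into tissue, was at 396 to 478 CPM in 46 and 317 to 654 CPM in the retained 40 libraries, with a fold change of -0.05 ± 0.12. Among markers of neutrophils, which the sort removes, 0 of 5 tested passed, 4 were negative, and their summed level was 7.3 to 7.8 CPM in 46 and 6.8 to 52.2 CPM in 40, where the highest value was that of 40B2.

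Of 11 listed dendritic cell genes, 3 passed without 40C1 and 40C2, all higher (0.322% of all genes tested were called higher): Xcr1, Clec9a and Itgae. Xcr1, a chemokine receptor of cross-presenting dendritic cells, was at 2.35, 4, 3.24 and 3.49 CPM in 46C5, 46C7, 46C3 and 46C6 and at 0.47 to 1.45 CPM in the 6 retained 40 libraries. These values did not overlap, and 40C1 and 40C2 stood at 5.36 and 2.69 CPM. The log2 fold change of Xcr1 was 1.78 ± 0.29 (adjusted p = 0.0212), and 1.18 ± 0.46 over 12 libraries (adjusted p = 0.439). Clec9a, a receptor of the same cells for dead-cell material, rose by 1.28 ± 0.24 and Itgae, which encodes CD103, by 1.44 ± 0.25 on the log2 scale. Over 12 libraries Clec9a had a fold change of 0.55 ± 0.60 and Itgae one of 1.18 ± 0.28, and neither passed. Flt3, the growth factor receptor of all classical dendritic cells, was at 23.3 to 32.1 CPM in 46 and 20.4 to 32.0 CPM in the retained 40 libraries (0.14 ± 0.10), against 87.3 and 89.3 CPM in 40C1 and 40C2. The median of the 11 genes was 0.23, or -0.06 with 0 passing over 12 libraries. Without 40C1 and 40C2, 4 of the 11 were positive for 46C5, 7 for 46C7, 10 for 46C3 and 9 for 46C6.

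Of 12 listed muscle genes, 3 passed without 40C1 and 40C2, all higher (0.322% of all genes tested were called higher). Ckm, the muscle creatine kinase, was at 12.4, 11.8, 15.3 and 13 CPM in 46C5, 46C7, 46C3 and 46C6, and at 5.98, 7.97 and 10.6 CPM as the lowest, median and highest of all 8 libraries starting with 40. The sets did not overlap even with 40C1 and 40C2 included. Ckm had a log2 fold change of 0.81 ± 0.13 without those 2 (adjusted p = 0.0218) and 0.70 ± 0.15 with them (adjusted p = 0.162). Actc1, the actin of heart and developing muscle, was at 10.9 to 12 CPM in 46 and 4.91 to 6.91 CPM in the retained 40 libraries (0.94 ± 0.13, adjusted p = 0.015), and Mylpf, a myosin light chain of fast fibres, at 22.9 to 29.1 against 12.4 to 19.4 CPM (0.70 ± 0.12, adjusted p = 0.0291). Over 12 libraries Actc1 had a fold change of 0.63 ± 0.24 and Mylpf one of 0.53 ± 0.18, and neither passed.

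The median of the muscle list was 0.54. Over 12 libraries 0 of the 12 passed, 7 were at an unadjusted p under 0.05 (9.83% of all genes tested were) and the median was 0.41. The summed level of the list was 152 to 178 CPM in 46 and 95.6 to 145 CPM in 40. Myogenic regulators on the list did not pass: Myog was at 6.56 to 8.23 CPM in 46 and 4.06 to 8.45 CPM in 40 (0.56 ± 0.14 without 40C1 and 40C2), and Pax7, the satellite cell factor, was at 0.505 to 0.771 CPM in 46 (0.25 ± 0.40). The sort should hold no muscle cells, and the part of muscle RNA in the other differences was not tested.

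**Figure D3:**
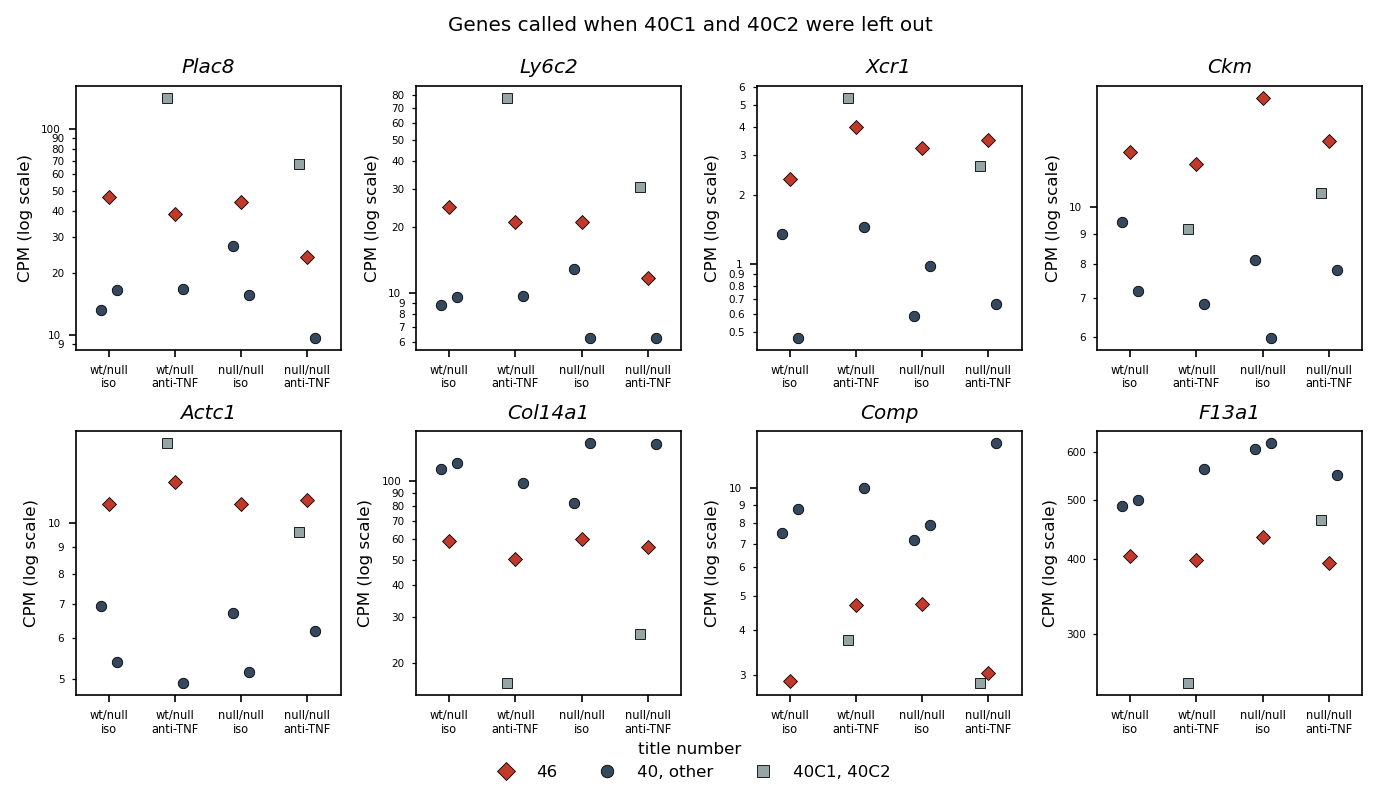
Levels of 8 genes in every library, in CPM on a log scale, by group; diamonds are 46 libraries, circles the 6 retained 40 libraries and squares 40C1 and 40C2. In the anti-TNF groups the squares lie beyond the diamonds for Plac8, Ly6c2 and Col14a1, while every diamond lies on the same side of the circles of its own group.

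Of 10 listed fibroblast genes, 1 passed without 40C1 and 40C2, Mfap5, which was lower (0.306% of all genes tested were called lower). The matrix genes Col14a1, Comp, Fmod and Sparcl1, and Kitl, are not on that list and were taken from the called genes after their values were seen. Col14a1, a fibril-associated collagen, was at 59.1, 50.3, 59.7 and 55.9 CPM in 46C5, 46C7, 46C3 and 46C6 and at 82.2, 114 and 140 CPM as the lowest, median and highest of the 6 retained 40 libraries. The 40C1 and 40C2 libraries were lower still, at 16.8 and 26.0 CPM. Col14a1 fell by 1.01 ± 0.13 on the log2 scale (adjusted p = 0.0153), and with all 12 libraries the change was -0.64 ± 0.52 (adjusted p = 0.718). The cartilage and tendon matrix gene Comp was at 2.87 to 4.74 CPM in 46 and 7.16 to 13.4 CPM in the retained 40 libraries (-1.29 ± 0.20, adjusted p = 0.0208). The collagen-binding proteoglycan gene Fmod (-1.14 ± 0.19), the microfibril gene Mfap5 (-1.13 ± 0.21), the matricellular gene Sparcl1 (-1.04 ± 0.16) and Kitl, the ligand of the receptor KIT (-0.91 ± 0.13), were lower too. Over 12 libraries these 6 genes had fold changes of -1.01 to -0.64 and none passed.

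Of the 10 fibroblast markers on the list, 9 had a negative fold change without 40C1 and 40C2 and the median was -0.50. In that fit 8 of them were at an unadjusted p under 0.05. Over all genes tested in it, 49.7% were negative and 13.8% were at an unadjusted p under 0.05. All 10 were negative over 12 libraries with a median of -0.29, 1 at an unadjusted p under 0.05 and 0 passing. Over all genes tested in 12 libraries these shares were 52.2% and 9.83%. The main fibrillar collagen genes did not pass: Col1a1 was at 212 to 350 CPM in 46 and 302 to 564 CPM in the retained 40 libraries (-0.48 ± 0.20, adjusted p = 0.33) and Col3a1 at 271 to 426 against 371 to 636 CPM (-0.43 ± 0.19, adjusted p = 0.348). By group, the median of the list was -0.23 for 46C5, -0.92 for 46C7, -0.02 for 46C3 and -1.36 for 46C6 without 40C1 and 40C2, so the pairs 46C7 with 40A2 and 46C6 with 40A3 were farthest apart. Summed, the list was at 814 to 1244 CPM in 46, 1159 to 2044 CPM in the retained 40 libraries and 406 to 577 CPM in 40C1 and 40C2. The sorted cells were CD45-positive, and whether these transcripts came from myeloid cells or from fibroblasts carried through the sort was not tested.

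Among macrophage genes called without 40C1 and 40C2, Stab1, a scavenger receptor of resident-type macrophages, was at 1522 to 1991 CPM in 46 and 1949 to 2459 CPM in the retained 40 libraries (-0.40 ± 0.08, adjusted p = 0.0465). The lipid scavenger receptor Cd36 was at 272 to 319 against 346 to 468 CPM (-0.45 ± 0.09, adjusted p = 0.047), and the purinergic receptor P2ry12 fell by 0.50 ± 0.10. Abcg1, a sterol exporter, was higher at 440 to 469 against 269 to 362 CPM (0.51 ± 0.08, adjusted p = 0.0211), as were the ubiquitin ligase Trim25 (230 to 273 against 131 to 191 CPM; 0.60 ± 0.09) and the NF-κB adaptor Traf1 (0.48 ± 0.09). Over 12 libraries none of these 6 passed, and the fold change was 0.28 ± 0.19 for Abcg1, 0.46 ± 0.14 for Trim25, 0.24 ± 0.20 for Traf1, -0.31 ± 0.11 for Stab1, -0.31 ± 0.15 for Cd36 and -0.48 ± 0.09 for P2ry12. The receptor gene Kit was at 5.44 to 7.88 CPM in 46, 3.21 to 4.22 CPM in the retained 40 libraries and 21.2 and 14.2 CPM in 40C1 and 40C2 (0.75 ± 0.13, adjusted p = 0.0266), and its fold change was 0.09 ± 0.47 over 12 libraries (adjusted p = 0.972). Its ligand Kitl was among the lower genes. Kit was the 1 of 4 tested mast cell genes that passed without 40C1 and 40C2 (median 1.17), where 0.322% of all genes tested were called higher. The summed list was at 8.07 to 12.1 CPM in 46 and 4.49 to 7.58 CPM in the retained 40 libraries. It was at 21.2 and 16.0 CPM in 40C1 and 40C2. Cpa3, a mast cell protease gene, was near 0, at 0.554 to 1.7 CPM in 46 and 0 to 1.13 CPM in 40, and did not pass.

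None of 18 osteoclast-type and matrix protease genes passed in either fit. Of the 18, 12 were positive and 6 negative over 12 libraries, and 11 and 7 without 40C1 and 40C2. In 4 of them, Mmp9, Ctsk, Dcstamp and Ocstamp, 46C5, 46C7 and 46C6 lay above every other library. This placement was picked out after the values were seen. The share of all genes tested with the same placement was not counted, so the 4 of 18 cannot be read against it. Mmp9, a gelatinase, and Ctsk, the collagen-degrading cathepsin K, were chosen after their values were seen. Mmp9 was at 1091, 1025 and 826 CPM in 46C5, 46C7 and 46C6, and at 360 CPM in 46C3. In the 40 libraries its lowest, median and highest levels were 6.80, 220 and 659 CPM, with the lowest values, 6.80 and 19.2 CPM, in 40C1 and 40C2. The 3 first-named libraries were above all 8 libraries starting with 40, and 46C3 was below both 40 libraries of its own group (659 CPM in 40C4 and 474 CPM in 40B2). The log2 fold change of Mmp9 was 2.32 ± 0.92 (adjusted p = 0.45), or 1.60 ± 0.49 without 40C1 and 40C2 (adjusted p = 0.212).

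Ctsk followed the same order, at 1233, 1124 and 982 CPM in 46C5, 46C7 and 46C6, 400 CPM in 46C3, and 21.0 to 698 CPM in 40. Dcstamp and Ocstamp, which encode membrane proteins needed for fusion of osteoclast precursors, were at 20.2, 17.9, 11.5 and 15.7 CPM and at 39.5, 38.3, 19.0 and 31.0 CPM in 46C5, 46C7, 46C3 and 46C6. The 40 libraries were at 4.21 to 11.6 CPM for Dcstamp and 7.20 to 21.6 CPM for Ocstamp, and only 46C3 lay inside these ranges. Ocstamp had a log2 fold change of 1.47 ± 0.27 (adjusted p = 0.158). The metalloprotease gene Mmp19 was above both 40 libraries in all 4 groups, at 113, 89.0, 113 and 97.8 CPM, with a fold change of 0.67 ± 0.12 (adjusted p = 0.153; 0.0514 without 40C1 and 40C2). The list had 9 of 18 members at an unadjusted p under 0.05 and a median of 0.40, and group medians of 0.55, 0.66, 0.03 and 0.54 for 46C5, 46C7, 46C3 and 46C6. Over all genes tested, 9.83% were at an unadjusted p under 0.05. The macrophage elastase gene Mmp12, also on the list, had overlapping levels (281 to 332 CPM in 46, 170 to 416 CPM in 40; 0.09 ± 0.22).

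**Figure D4:**
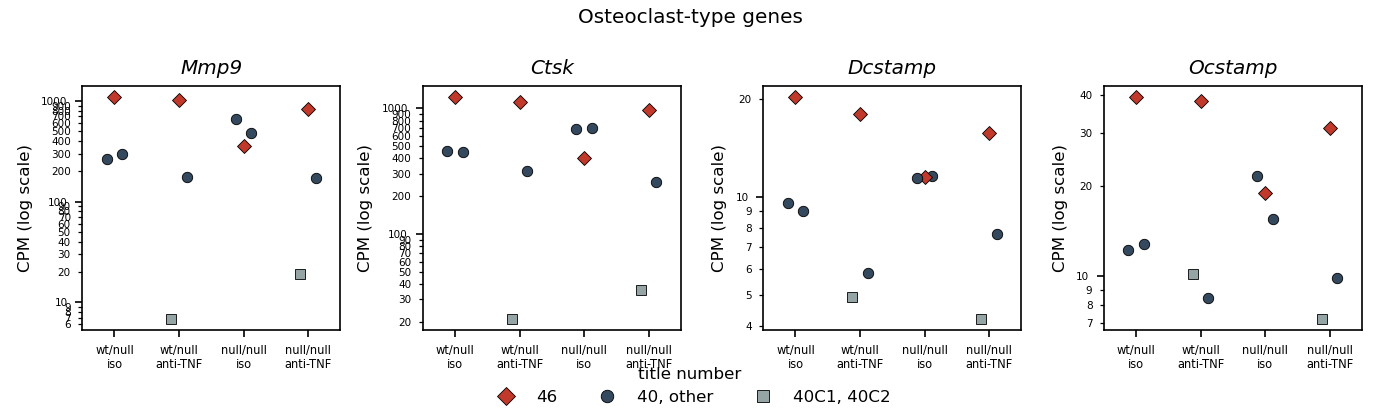
Levels of 4 osteoclast-type genes in every library, in CPM on a log scale, by group; diamonds are 46 libraries, circles 40 libraries and squares 40C1 and 40C2. The diamonds of 46C5, 46C7 and 46C6 lie above every other library, while that of 46C3 (null/null isotype) lies at or below the circles of its group for Mmp9 and Ctsk.

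Cell cycle and oxidative phosphorylation genes had mostly small positive fold changes, with no member passing. Of 31 cell cycle genes, 29 had a positive fold change over 12 libraries and 7 were at an unadjusted p under 0.05, with a median of 0.33, and 0.16 without 40C1 and 40C2. Over all genes tested in 12 libraries, 47.8% were positive and 9.83% were at an unadjusted p under 0.05. By group, 30, 29, 19 and 31 of the 31 were positive for 46C5, 46C7, 46C3 and 46C6, but without 40C1 the count for 46C7 was 15, with a median of -0.01, and without 40C2 that for 46C6 was 28. Cdk1, the mitotic kinase, was at 17.3 to 20.1 CPM in 46 and 6.21 to 18.6 CPM in 40, where the lowest 2 values were those of 40C2 and 40C1. All 22 oxidative phosphorylation genes were positive, with a median of 0.15 (0.10 without 40C1 and 40C2), and Cycs, which encodes cytochrome c, was at 26.5 to 32.0 CPM in 46 and 19.0 to 26.6 CPM in 40 (0.37 ± 0.08, adjusted p = 0.19). In the null/null isotype group 8 of the 22 were positive, against 20 to 22 in each other group. Of 12 NRF2 and oxidative stress genes, 9 were positive in both fits (median 0.21 and 0.22), among them the thioredoxin reductase gene Txnrd1 (102 to 125 CPM in 46, 66.2 to 108 CPM in 40; 0.39 ± 0.08, adjusted p = 0.158).

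Cholesterol synthesis genes were mostly negative: 16 of 20 were negative over 12 libraries (median -0.08) and 19 of 20 without 40C1 and 40C2 (median -0.25, 11 at an unadjusted p under 0.05), with none passing. Without 40C1 and 40C2, 49.7% of all genes tested were negative and 13.8% were at an unadjusted p under 0.05. Stard4, a sterol carrier, was at 6.52 to 10.3 CPM in 46 and 11.9 to 15.7 CPM in the retained 40 libraries (-0.56 ± 0.13, adjusted p = 0.0767). The nuclear RNA Neat1 was at 307, 309, 419 and 447 CPM in 46C5, 46C7, 46C3 and 46C6 and above both 40 libraries in all 4 groups (0.71 ± 0.18, adjusted p = 0.223), while Malat1, another abundant nuclear RNA, had a fold change of -0.01 ± 0.23.

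For several immune lists the sign of the median turned with 40C1 and 40C2. The IFN-γ-inducible list (27 genes tested) had a median of -0.29 over 12 libraries and 0.06 without those 2. The type I interferon-stimulated list (32 genes) had -0.11 and 0.17, with 6 and then 31 members positive. Over all genes tested 47.8% and 50.3% were positive. Of the 32, 0 and then 1 were at an unadjusted p under 0.05, against 9.83% and 13.8% of all genes. Without 40C1 and 40C2, 27, 29, 9 and 32 of them were positive for 46C5, 46C7, 46C3 and 46C6. MHC class II genes went from -0.02 to 0.20, NF-κB targets from -0.04 to 0.14, and T and NK cell markers from -0.43 (10 tested) to 0.32 (6 tested). The groups still differed in sign without 40C1 and 40C2. For 46C5, 46C7, 46C3 and 46C6 the medians were then 0.40, -0.11, 0.36 and -0.27 for NF-κB targets. Those of MHC class II genes were -0.14, 0.18, 0.59 and 0.06. Ribosomal protein genes (-0.08 and -0.06) and lysosomal genes (-0.05 and -0.08) had medians near that of all genes tested (-0.01 and 0.00). Their signs were mostly negative, in 25 and then 24 of 25 ribosomal protein genes and in 17 and then 19 of 22 lysosomal genes. Over all genes tested, 52.2% and 49.7% were negative. At an unadjusted p under 0.05 stood 6 and then 5 lysosomal genes, and 3 and then 2 ribosomal protein genes. The share over all genes was 9.83% and 13.8%. Summed, the IFN-γ-inducible list was at 4094 CPM in 40C1 and at 753 to 1477 CPM in the other 11 libraries. None of these lists had a member called over 12 libraries, and Traf1 was the one called without 40C1 and 40C2. Tnf itself was at 20.7 to 34.3 CPM in 46 and 22.8 to 105 CPM in 40 (-0.50 ± 0.36, adjusted p = 0.674).

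**Figure D5:**
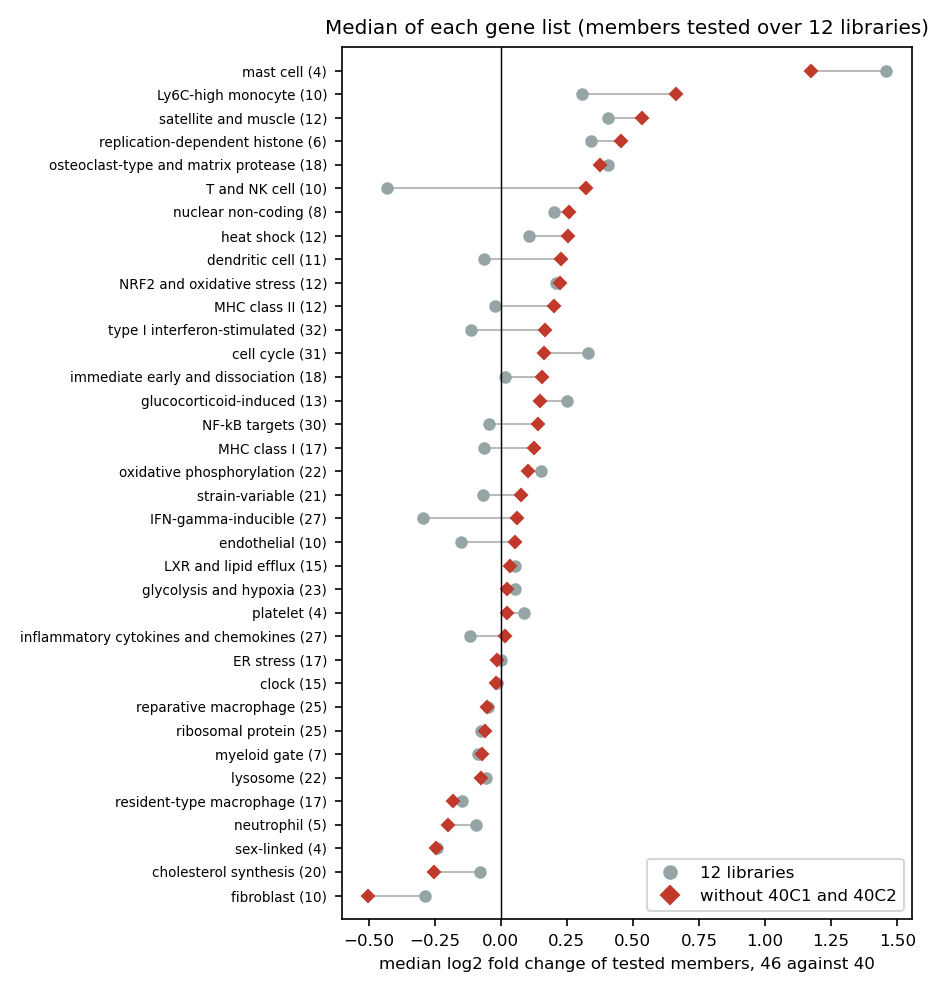
Median fitted log2 fold change, 46 against 40, of each gene list with at least 4 members tested over 12 libraries. The number of those members is in brackets. Circles are the fit to 12 libraries and diamonds the fit without 40C1 and 40C2. Of the lists drawn, fibroblast genes lie lowest in the fit without those libraries, and mast cell genes lie farthest to the right in both fits. Monocyte and muscle genes lie to the right of 0 in both fits, while interferon, MHC and T and NK cell lists cross 0 between fits.

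Among genes known to differ between laboratory mouse strains or substrains, 0 of 21 tested passed in either fit. Mid1, which crosses the pseudoautosomal boundary of the X chromosome, was at 3.08, 3.81, 5.98 and 2.13 CPM in 46C5, 46C7, 46C3 and 46C6 and at 8.81, 9.67 and 19.6 CPM as the lowest, median and highest of the 40 libraries. All 46 libraries were below all 40 libraries (-1.57 ± 0.29, adjusted p = 0.158; -1.54 ± 0.32 without 40C1 and 40C2, adjusted p = 0.0743). The 79 of the 82 called genes with a RefSeq position were spread over 18 chromosomes, with at most 9 on one (chromosome 11, which has 1066 genes tested).

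The difference between 46 and 40 was also compared between the antibodies and between the genotypes, as an interaction in edgeR over 12 libraries. No gene passed for the antibody (0 of 12981, 0%; 556 at an unadjusted p under 0.05) or for the genotype (0 of 12981, 0%; 205 at an unadjusted p under 0.05). Leaving out 40A2 gave 23 calls for the antibody, leaving out 40C1 or 46C7 gave 1, and leaving out 46C3 gave 1 for the genotype. DESeq2 called 23 genes for the antibody over 12 libraries, and limma voom called 1, Nr4a2. DESeq2 called 2 genes for the genotype, Arg1 and Lyve1, and limma voom called 0. Nr4a2, an orphan nuclear receptor induced by inflammatory signals, was at 33.8 CPM in 46C5 against 13.9 and 15.8 CPM in its group, at 40.7 against 22.7 and 29.9 CPM for 46C3, at 24.1 against 42.7 and 34.9 CPM for 46C7, and at 29.98 against 39.9 and 37.8 CPM for 46C6. The 46 library was thus the highest in both isotype groups and the lowest in both anti-TNF groups. Arg1, the macrophage arginase, was at 9.11 and 14.3 CPM in 46C5 and 46C7, above the 40 libraries of their groups (2.22 to 4.71 CPM), and at 2.85 and 3.95 CPM in 46C3 and 46C6, below theirs (4.87 to 9.07 CPM). In edgeR neither gene passed, and both were chosen after their values were seen. Among 18 immediate early genes, which respond within minutes to stimuli and to tissue dissociation, 18 were higher in 46C5 and 17 in 46C3 than the mean of the 40 libraries of the group (median 0.57 and 0.37), and 1 each in 46C7 and 46C6 (median -0.30 and -0.54). Without 40C1 the count for 46C7 was 11 of 18 and the median 0.11, and without 40C2 that for 46C6 was 0 of 18 and -0.52. For these and the other list counts by group, the share of all genes that were positive in the same library was not counted.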

How the data were processed

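Per the labels, RNA was purified with an RNeasy Micro kit, stranded mRNA libraries were made with NEBNext Ultra II and sequenced in pairs on a NextSeq instrument. Per the submitters' processing notes, bcl2fastq 2.20, STAR, Bowtie and build mm10 were used, with no roles given. The counting tool, strand setting and annotation are not given in the sources used here. The authors deposited one table of raw counts for 24421 gene symbols, of which 95.0% were found in RefSeq (GRCm38.p6). All 12 columns matched a sample title.

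Genes were kept with filterByExpr on the 4 groups, scaled by TMM and fitted in edgeR 4.0.16 (R 4.3.3) with robust quasi-likelihood models of group plus title number. Calls are at a Benjamini-Hochberg adjusted p below 0.05, two-sided, as is every p here. Log2 CPM used a prior count of 2. Library measures were tested by exact permutation of title numbers within groups, with adjustment over 8 measures. Alternatives used DESeq2 1.42.0, limma voom (limma 3.58.1), relative log expression scaling, other filters (none, or 1 CPM in 4 libraries), subsets of 40 libraries, no group term and each library left out. Fits were tested on simulated counts.

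The members and lists were chosen with earlier results of these data known, and 40C1 and 40C2 were left out for standing apart in expression. The fit without them as a result of its own, with its alternatives, was added after seeing the data. Genes were named by rule: the 12 largest rises and falls among called genes whose mean log2 CPM was 2 or more, the 10 smallest p where fewer than 10 were called, up to 4 called members per list, or the 2 with the smallest p, up to 5 called interaction genes, and checks. Not every gene that the rule gave is described. Without 40C1 and 40C2 it also gave the falls C1qtnf3 (log2 fold change -1.03), Htr2b (-1.02), Apol7c (-1.01) and Etl4 (-0.94). The rises it also gave were Rhou (1.17), Treml4 (0.86) and Mir22hg (0.70). The 40 lists held 612 entries, 594 of them in the table (16 under an older symbol). Mmp9, Ctsk and Acp5 and other genes outside this rule were chosen after their values were seen. Replicate numbers follow listing order and pair nothing.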

Additional observations from a re-analysis of the deposited data

Results flagged for a closer look

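Across 5 library measures and 27 genes, each looked at in the 4 libraries starting with 46 and in the 8 starting with 40 (64 sets), 2 had a library far from the others by Dixon's criterion. Chance flags about 1 in 20 such sets. F13a1 in 40C1 was at 249 CPM, below the other libraries starting with 40 (464 to 620 CPM). Mylpf in 46C3 was at 29.1 CPM, above the other 46 libraries (22.9 to 23.5 CPM).

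For 15 of 68 genes described above, the 46 library lay above both 40 libraries in at least 1 group and below both in another. The share over all genes tested was not counted, and many of the 68 were named for a difference shared by the groups. The count therefore does not show that such opposite placement was more or less common than among other genes. Each value is the log2 difference of the 46 library from the mean of its group's 40 libraries, in the group or groups that went against the others. In null/null isotype it was -0.64 for Mmp9 and -0.80 for Ctsk, which were above both 40 libraries in the other 3 groups. In that group it was also -0.67 for Fn1, 0.34 for Tnf and 0.036 for Adgre1. In wt/null anti-TNF it was -0.80 for Ccr2, -0.38 for Ptprc, -0.45 for Malat1, 0.052 for Csf1r and 0.29 for Itgam, and in wt/null isotype it was -0.15 for Mmp12. In both null/null groups, isotype then anti-TNF, the values were -1.20 and -0.79 for Arg1 and -2.34 and -0.66 for Lyve1. In both anti-TNF groups, wt/null then null/null, they were -0.68 and -0.37 for Nr4a2 and -1.05 and -1.13 for Pax7. As interactions with antibody or genotype over 12 libraries, none of these passed in edgeR, and differences between a single group and the rest were not tested.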

How the results depend on the processing

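The number of genes called over 12 libraries depended on the tool and on the libraries, and the cause was not tested. Against 0 higher and 2 lower in edgeR, DESeq2 gave 89 and 58, limma voom 68 and 42, and dropping the group term 1 and 6. A stricter filter left 1 lower gene, with Rnase4 at an adjusted p of 0.0503. The comparison with 40C alone, which includes 40C1 and 40C2, gave 0 lower, and that with 40A and 40B gave 71 and 53. Without 40C1 and 40C2 it was 42 and 40, and 42 and 41 with relative log expression scaling. Leaving out 1 library gave 0 to 62 higher and 0 to 24 lower. For the fit without 40C1 and 40C2, DESeq2 gave 204 higher and 203 lower, limma voom 217 and 210, no filter 88 and 83, and leaving out 1 more library 0 to 236 and 0 to 241. The antibody interaction gave 23 genes in DESeq2, 1 in limma voom and 0 to 23 with 1 library left out, the most without 40A2. The genotype interaction gave 2 in DESeq2 and 0 to 1 with 1 library left out. No named gene changed sign past the threshold under any of these settings. No paired analysis was possible because the replicate numbers follow listing order and pair no samples across groups. At this number of libraries, a gene that missed the threshold is not shown to be equal between the titles.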
